A study of Ovis aries and Bos taurus with 6 samples.

Results

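The sheep table of milk extracellular vesicle (EV) small RNA lists 685 rows, each a mature-length sequence with its read count in 3 libraries. Of these, 116 are described here, selected on their counts and sequences. They are the rows without a miRBase name that the table marks as mature, that have at least 10 counts in each sheep library, and whose seed (bases 2 to 8) is held by none of the 84 rows with a sheep miRBase name. A fixed list of 11 row numbers was left out by the same rule, and 10 of those had a seed of this kind. EVs are membrane particles that cells shed. The 3 libraries came from milk of Ordos fine wool sheep, females in mid lactation, with EVs isolated by an exosome kit for body fluids, so vesicles were not separated by source cell. The labels speak of 3 sheep and do not state that each library is 1 animal. There is no treated or untreated arm among them. A second table of the series holds 3 Holstein cow libraries, also milk EVs of mid lactation, from an earlier study. It gives no sequences, so the 116 rows cannot be followed into it as a set.

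A miRNA guides Argonaute proteins to messenger RNAs that pair with its seed, so miRNAs with the same seed form a family with overlapping targets. Both arms of a hairpin precursor can be cut out, and the more used arm is called mature and the other star. Many animal miRNAs begin with U, which the files write as T, because Argonaute holds that base well. The cut at the 5′ end sets the seed, and a shift of 1 base there changes the seed while most of the sequence stays. Short reads from tRNA and rRNA also occur in small RNA libraries and can fold into hairpin-like shapes, so lists of predicted miRNAs often hold some.

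The seeds were new only against the 84 named sheep rows. Names were given by recall of textbook sequences, after the rows were seen and without a database match. By this recall 66 of the 116 rows were read as a known conserved miRNA, with the same or other ends, under 58 names. Recall may have missed some, so 66 should not be read as a full count. Known miRNAs may also stand among the rows left without a name. None of these 58 names had a gene symbol among the 106 miRNA genes in the RefSeq gene table of sheep (ARS-UI_Ramb_v3.0), while all 84 named rows had one. The rows were selected for having no miRBase name, so this absence gives no separate support. By the recalled names, the label "new seed" holds for the named part of the table and not for miRNAs as a whole. Of the 20 rows of highest mean level, 14 have such a name. The sequences of the 10 highest textbook rows are shown, 5′ to 3′, with the seed in capitals, because they make up the abundant end.
novel4 (miR-9-5p): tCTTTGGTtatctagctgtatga
novel8 (miR-24-3p): tGGCTCAGttcagcaggaacagg
novel19/novel143 (miR-7-5p): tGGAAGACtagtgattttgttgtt
novel304 (miR-128-3p): tCACAGTGaaccggtctctttcc
novel170 (miR-146b-5p): tGAGAACTgaattccataggct
novel23 (miR-34c-5p): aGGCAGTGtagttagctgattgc
novel11 (miR-126-3p): tCGTACCGtgagtaataatgc
novel135 (miR-155-5p): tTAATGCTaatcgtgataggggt
novel10 (miR-24-3p): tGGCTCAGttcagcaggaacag
novel172 (miR-215-5p): aTGACCTAtgaattgacagaca

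The other 50 rows have no textbook name given here. Their 7 most abundant sequences follow in the same form, since they make up the abundant end of the rows without a name. They were not matched to a reference of miRNAs. Of them novel198 holds a tRNA motif, and novel195 shares a stretch with a row that holds one.
novel426: gCGTCTGTagtccatcgg
novel26: gAGAGATCagaggcgcagagt
novel195: gGGCTTGTagctcagaggc
novel349: tGAAAATGacgtgacggacttct
novel393: aGGCGAAGggagaaaggggca
novel198: gTTTCTGTagtgcagtggttatca
novel47: tGCGGGATctttagttgtggcgt

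Depth was 1110632, 2078695 and 1073914 miRNA counts in sheep replicates 1, 2 and 3. Levels are given as counts per 1000000 of these totals (CPM), with no correction for length, since each read stands for 1 small RNA. With the floor at 3 counts, a count of 0 in replicate 3, the shallowest library, would allow up to 2.79 CPM. Adapter ligation and PCR favour some sequences, so levels of different rows are shares of reads and not of molecules. The largest row of the table, miR-148a, took 19.6%, 63.6% and 38.0% of the counts, which lowers the CPM of every other row in replicate 2.

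The 116 rows together took 7.32%, 3.43% and 7.90% of the miRNA counts of replicates 1, 2 and 3, a mean of 6.21% ± 2.43 (SD, n = 3). The 95% Wilson intervals reached at most 0.051 percentage points to either side and cover counting error only. Replicate 2 lay lowest. With miR-148a left out of the totals the shares were 9.10%, 9.41% and 12.7%, a mean of 10.4%, and replicate 1 lay lowest, while of the counts of unnamed rows alone the mean was 16.6%. The 11 rows left out by number took a mean of 27.8% ± 14.5 (SD, n = 3), so the members were the lesser part of the unnamed counts. Since the rule used these counts, the share is a description.

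Levels ran from 10.5 CPM for novel62 (miR-490-3p) to 4964 CPM for novel4, with a median of 243 CPM over the members. There were 92 rows at 50 CPM or more. The 10 largest rows of a library held 51.4%, 52.4% and 60.04% of its member counts, and no row took more than 12.1%. The largest row was another one in each library, novel4 in replicate 1, novel8 in replicate 2 and novel426 in replicate 3. At the threshold, the rows just inside were novel62 with 17, 14 and 10 counts, novel163 with 24, 10 and 11, and novel417 with 42, 14 and 10. Just outside were novel241 with 9, 170 and 86 counts, novel192 with 9, 13 and 191, and novel58 with 56, 54 and 9.

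**Figure D1:**
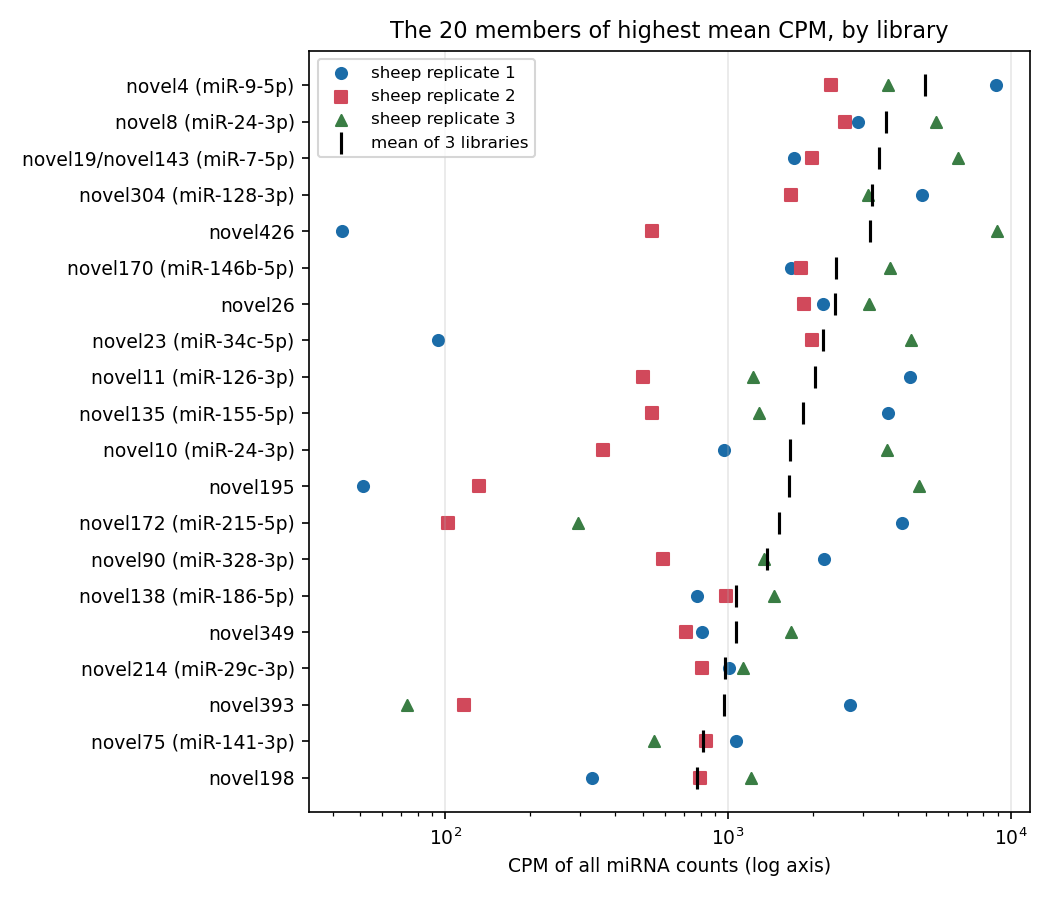
CPM (log axis) of the 20 members of highest mean level in each of the 3 sheep libraries, with the mean as a bar; names in brackets are by recall of textbook sequences. Rows such as novel426, novel195, novel172 and novel393 spread over more than 1 order of magnitude, while novel26 and novel214 lie close together.

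The most abundant seed was that of miR-24, a widely expressed miRNA, carried by 3 nested rows that differ only at the 3′ end. Summed, they had 3990, 4619 and 9265 CPM, a mean of 5958 ± 2881 (SD, n = 3). The longest, novel8, had 2879, 2582 and 5419 CPM. The middle one, novel10, had 971, 361 and 3635, and the shortest, novel352, had 140, 1676 and 210. The order of the 3 lengths thus differed between libraries, with the shortest above novel10 in replicate 2 only. The sources do not state how reads were divided among nested rows, so the sum is firmer than its parts.

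The neuronal miRNA miR-9 came next. Its rows novel4 and novel139 share the start and summed to 9058, 2451 and 4279 CPM (5262 ± 3412). miR-128, another miRNA known from neurons, had rows novel304 and novel17 with a sum of 5181, 1780 and 3434 CPM. By CPM replicate 1 was highest and replicate 2 lowest for both. With TMM factors the miR-128 sum was 3117, 3021 and 3364, so replicate 3 was then highest, while replicate 1 stayed highest for miR-9. miR-124, the most specific of the neuronal miRNAs listed, was held by novel41/novel42 and novel137 and had only 244, 59.7 and 122 CPM. With all 3 names of the neuronal list present, the list summed to 14483, 4291 and 7835 CPM, a mean of 8869 ± 5174 (SD, n = 3), or 6063 without replicate 1. miR-7, known from endocrine and neuronal cells, had 1877, 2041 and 7303 CPM over novel19/novel143 and novel18, and replicate 3 was highest there.

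Further families shared a seed across different names. miR-34c (novel23) and miR-34a (novel52), both known as genes switched on by p53, share a seed and differed in pattern. novel23 had 94.5, 1982 and 4451 CPM, lowest in replicate 1, while novel52 had 131, 41.9 and 88.5 CPM, highest in replicate 1 by CPM but in replicate 3 with TMM factors. miR-215 (novel172) and miR-192 (novel151), known from gut and liver, share another seed and were both highest in replicate 1 on each scale tried. novel172 had 4137, 101.99 and 296 CPM, and novel151 had 1269, 228 and 363. miR-204, known from epithelia of the eye and kidney, was split between novel13 with 701, 468 and 697 CPM and novel12 with 849, 40.9 and 874. The partners of novel23 and novel172, whose sequences stand above, are shown to compare the stretch after the seed.
novel52 (miR-34a-5p): tGGCAGTGtcttagctggttgtt
novel151 (miR-192-5p): cTGACCTAtgaattgacagcc
In all, the 116 rows held 101 different seeds. There were 13 seeds with more than 1 row, which took in 28 rows, and no seed had more than 3.

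Among the abundant rows with a seed of their own, novel170 carries miR-146b, known as a brake on inflammatory signalling, and had 1676, 1819 and 3749 CPM. novel90 (miR-328) had 2189, 587 and 1339 CPM, and novel138 (miR-186) had 777, 981 and 1452. The order of the libraries was not the same for these rows, with replicate 3 highest for novel170 and replicate 1 for novel90 on each scale tried, and replicate 3 by CPM but replicate 2 with TMM factors for novel138. With TMM factors replicates 1 and 3 were nearly equal for novel90.

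The remaining shared seeds were of lesser abundance. novel349 and novel357, nested and without a textbook name, summed to 873, 864 and 1858 CPM. novel179 (miR-196b) and novel234 share the miR-196 seed and had 91.8, 302 and 1275 CPM together, lowest in replicate 1. miR-196 genes lie in Hox clusters. novel359 and novel178 share a seed but differ after it and had 381, 122 and 127 CPM together. The last shared seeds belong to tRNA-like rows. In addition, 4 members shared a seed with a row left out by number. These were novel170, novel131 and novel88, which carry miR-146b, miR-206 and miR-92b beside the left-out miR-146a, miR-1 and miR-92a, and novel190, a tRNA-like row whose seed is that of the left-out liver miRNA miR-122.

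A seed can be new because the 5′ end is shifted. No member matched a named row at another start without a mismatch, over at least 16 bases. With 1 mismatch allowed novel214 did, and with 2 novel147 did as well. novel214 starts 1 base before miR-29a and differs from it by C10T (base of miR-29a, position counted from 1 at its 5′ end, base of novel214). Its sequence is that of miR-29c, a miRNA known to act on collagen messages, with 1 base more at the 5′ end. It had 1118, 1677 and 1210 counts, while the unshifted row novel181/novel188/novel189 had 4, 6 and 5. The listed counts of this sequence thus lay almost wholly on the shifted row in each of the 3 libraries. The unshifted row lies within the shifted one, and the sources do not state how reads were divided among nested rows. These counts therefore cannot tell which 5′ end was the more common. novel147 (miR-133b, known from muscle) starts 1 base before miR-133 and had 18.9, 6.25 and 28.9 CPM.
novel214 (miR-29c-3p): cTAGCACCatttgaaatcggtt
novel181/novel188/novel189: tAGCACCAtttgaaatcggtt
oar-miR-29a: tAGCACCAtctgaaatcggtt
novel147 (miR-133b): tTTGGTCCccttcaaccagctac
oar-miR-133: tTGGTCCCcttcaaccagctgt

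Against all rows of the table, 8 members had a copy at another start without a mismatch. For miR-101, a conserved miRNA, novel191 starts 1 base before novel122. Its counts came to 14.97%, 18.4% and 13.5% of those of novel122, a share that stayed close across the libraries. For miR-9 the order was the other way, and the row shifted by 2 bases, novel5, had 44, 1 and 4 counts against 9871, 4825 and 3956 for novel4. As novel5 lies within novel4, the same limit on the division of reads holds.
novel122 (miR-101-3p): tACAGTACtgtgataactgaag
novel191 (miR-101-3p): gTACAGTActgtgataactg
novel5: tTTGGTTAtctagctgtatga

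A seed can also be new by 1 base. novel496 matched let-7a from the same start over 18 bases except for A7T (base of let-7a, position from its 5′ end, base of novel496), which lies in the seed. Its 36, 15 and 23 counts were 0.0926%, 0.0235% and 0.0560% of those of let-7a. It was the only member with such a substitution against a named row, and it matched let-7c equally well.
novel496: tGAGGTTGtaggttgtat
oar-let-7a: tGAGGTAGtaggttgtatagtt
For 7 members the seed lay elsewhere in the first 10 bases of a named row. The seed of miR-128 (novel304, novel17) stands at position 3 of miR-27a, that of miR-196 (novel179, novel234) at position 3 of 7 let-7 rows, and that of miR-92b (novel88) at position 1 of miR-25. The rest were novel214 and novel147.

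The 116 rows had a median length of 22 bases and ran from 18 to 24. Rows of 21 to 23 bases, the usual size of a miRNA, were 65.5% of the members, beside 91.7% of the 60 named rows with at least 10 counts in each library. Rows of 18 to 20 bases were 26.7% of the members and 6.67% of those named rows. The difference lay with the rows that have no textbook name. Among the 66 rows with a textbook name 84.8% had 21 to 23 bases, and among the other 50 rows 20 did, with a median of 20.5 bases. The table as a whole had 57.8% in that range. Names were given by looking at sequences, so length is not independent of that division.

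**Figure D2:**
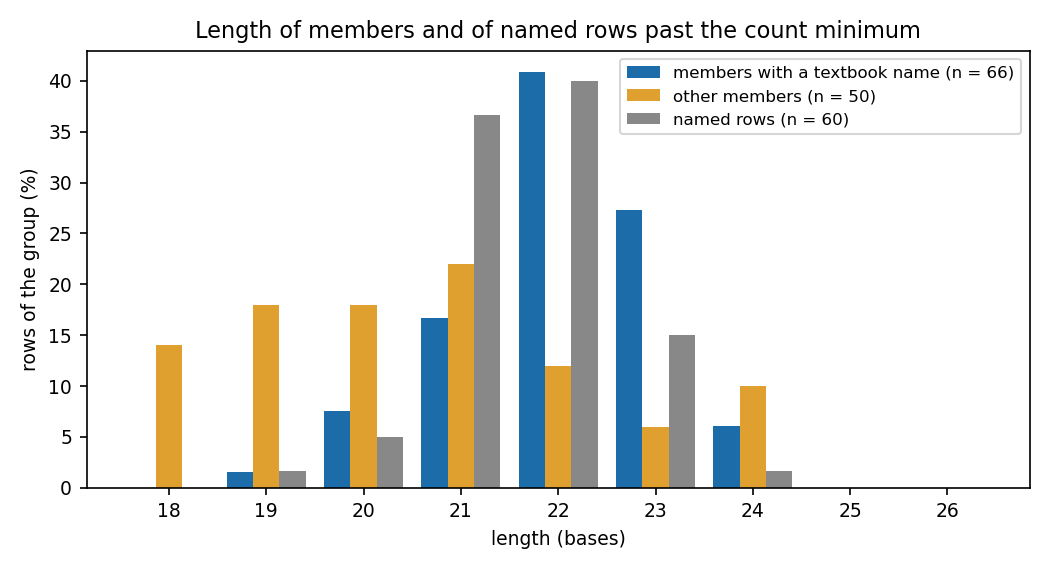
Percent of rows at each length in bases, for the 66 members with a textbook name, the other 50 members and the 60 named rows past the count minimum. The textbook-named members and the named rows peak at 22 bases, while the other members are spread over 18 to 24.

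Of the members 47.4% began with T (U in the RNA), 18.1% with G, 18.1% with C and 16.4% with A. Among the 60 named rows the values were 55.0%, 3.33%, 8.33% and 33.3%. Members thus began with A in a smaller share of rows than the named ones did, and with G and C in a larger share. Of the rows with a textbook name 63.6% began with T, and of the other 50 rows 13 did. Weighted by counts, T took 58.6%, 60.7% and 55.1% of the member counts of replicates 1, 2 and 3, and G took 13.4%, 14.1% and 26.4%. The higher value for G in replicate 3 moved with novel426 and novel195, both of which begin with G. Named rows, dominated by miR-148a and let-7, had T in 94.6% to 98.7% of their counts. The median GC content was 52.2% for the members, 47.8% for those with a textbook name and 58.1% for the others.

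A group of 9 members held a motif of the tRNA D-arm, CTCAGTG or GTGGTTA, searched on the listed strand only. They made up 7.76% of the members, beside 1.90% of all 685 rows and none of the 60 named rows. Of the 9, 8 began with G, and their median length was 24 bases. They took 0.317%, 0.172% and 0.310% of the counts, a mean of 0.266% ± 0.0816 (SD, n = 3). The largest, novel198, had 330, 797 and 1202 CPM, lowest in replicate 1. novel14/novel15 had 662, 365 and 842 CPM, and novel356 had 827, 82.7 and 239. novel171, novel449 and novel460 share a seed and summed to 469, 228 and 418 CPM. The search took exact letters and so left out novel195, which has agctcag at the same place as novel14/novel15 and then departs from the motif. novel195 had 51.3, 131 and 4729 CPM, in replicate 3 above the 3098 CPM of the 9 rows together.
novel14/novel15: gGGGATGTagctcagtggtagagc
novel171: gGGGGTGTggctcagtggtagagt
novel190: gGGAGTGTaactcagtggtagagt
novel356: gTAGTCGTggccgagtggttaag
Another 2 members, novel531 and novel382, end in CCA, the tail added to mature tRNAs. That ending is held by 1.72% of the members and by 1.61% of all rows. novel531 had 766, 77.0 and 29.8 CPM, and novel382 had 11.7, 48.6 and 432, so the libraries ran in opposite order. A match to a motif is a description of the letters and does not show where the RNA came from.

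A further 8 members, or 6.90%, had at least 80% G and C, beside the higher 9.64% of all rows and none of the 60 named rows. They are 19 to 21 bases long, none begins with T and none has a star row. They took 0.371%, 0.0456% and 0.0903% of the counts, and 7 of the 8 were highest in replicate 1, by CPM and with TMM factors. Of all 222 rows with at least 10 counts in each library 59.9% were highest there by CPM and 36.9% with TMM factors. The largest, novel276/novel355, had 1094, 183 and 83.8 CPM. novel266 had 888, 15.9 and 159. Without replicate 1 the mean share of the 8 was 0.0679%, against 0.169% ± 0.176 with it.
novel276/novel355: cACCCCCGcccgcctctcccc
novel266: gAGGGGGGccggggccgggag
novel268: cCGCCGGGcgggcggcgggc

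The last 31 rows, without a textbook name or any of these features as searched, took 1.35%, 0.618% and 2.24% of the counts. They include novel195, which resembles a tRNA-like row as described above. By CPM novel26 differed less between libraries, with 2173, 1855 and 3148. novel47 had 926, 727 and 549. The TMM factors raise replicate 2 against the others, and both rows were less even with them. In contrast, novel426 had 43.2, 540 and 8936 CPM and novel195 had 51.3, 131 and 4729, so nearly all their counts lay in replicate 3. novel393 was the reverse, with 2709, 116 and 73.6 CPM. The purine-rich rows novel231, with 1326, 57.2 and 394 CPM, and novel277, with 1067, 57.7 and 96.8, were also highest in replicate 1.

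The rule did not use the row for the other arm of the hairpin. Of the 116 members 50 had a star row of the same number, over 48 different star rows. Among the members with a textbook name 41 of 66 had one, and among the others 9 of 50, of which novel26, novel47 and novel14/novel15 are the most abundant. The star row had counts in all 3 libraries for 29 of the 41 and for 1 of the 9, novel125 with 48, 30 and 24. Names were given by recall and known miRNAs may stand among the 9. The contrast is thus of rows with and without a recalled name, and not of known and unknown miRNAs. For novel26 the star counts were 0, 0 and 68, for novel47 0, 49 and 0, and for novel14/novel15 38, 0 and 0, so each had them in 1 library only. In 41 pairs the mature row held more than 50% of the pair's counts in every library, and in 28 more than 90%. The median over pairs was 97.1%.

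In 3 pairs the row called mature, taken singly, was the lesser in every library. For novel25 (miR-142-3p, known from blood cells) the mature row took 22.03%, 18.3% and 30.6% of the pair, with 1062, 313 and 236 counts on the star row. For miR-204 the star row shared by novel12 and novel13 had 3620, 2181 and 1311 counts, and novel13 took 17.7%, 30.8% and 36.4% of its pair and novel12 20.7%, 3.75% and 41.7%. These mature rows are nested, and each was set alone against the shared star row. In replicate 3 novel13 had 749 counts and novel12 had 939, together more than the star row. In replicates 1 and 2 they were together fewer. In 6 more pairs the mature row fell under 50% in at least 1 library. For novel38 (miR-342-3p, known from lymphocytes) it took 57.4%, 77.6% and 9.90%, and for novel108 (miR-140-3p, known from cartilage) 76.6%, 34.5% and 22.4%. The ratio of the arms of these miRNAs thus differed between the libraries. The others were novel30, novel50, novel125 and novel139, the last being set against a star row that it shares with the far more abundant novel4.
novel25 (miR-142-3p), mature: gTAGTGTTtcctactttatggat
novel25, star: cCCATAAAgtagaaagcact
novel13 (miR-204-5p), mature: tTCCCTTTgtcatcctatgcctg
novel12/novel13, star: gCTGGGAAggcaaagggacgt

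**Figure D3:**
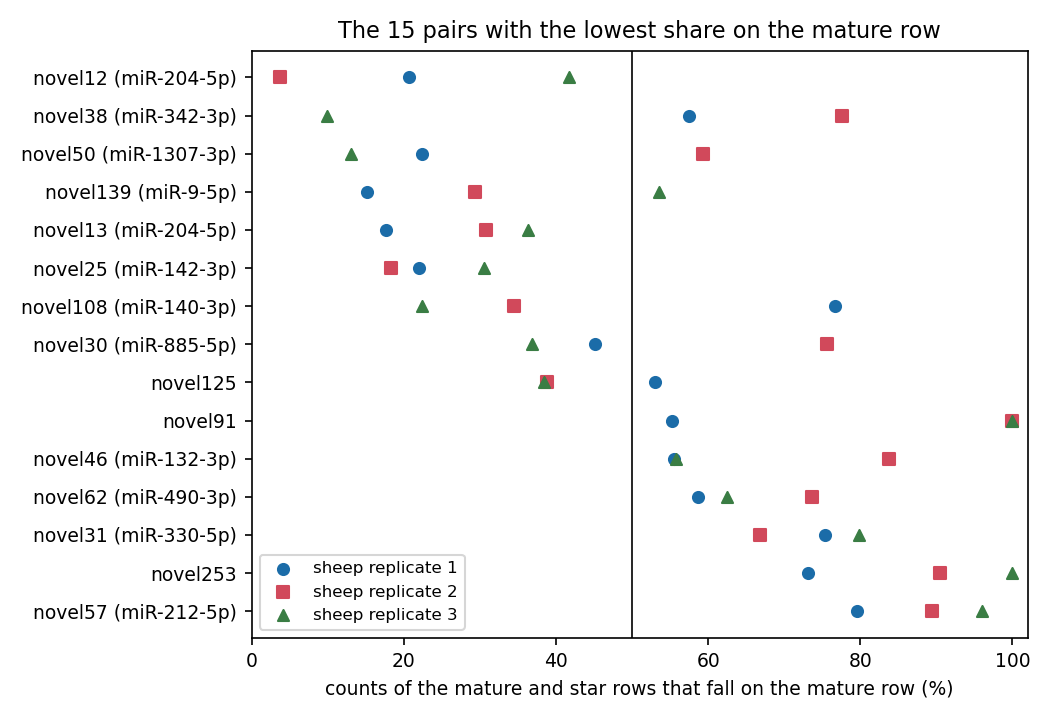
Percent of the counts of a mature and star pair that fall on the mature row, in each sheep library, for the 15 pairs with the lowest such value; the line marks 50%. novel12, novel13 and novel25 lie under the line in all 3 libraries, with novel12 and novel13 each set alone against the star row they share. novel38, novel50 and novel108 lie on both sides.

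Levels of the members varied widely between the libraries. The median coefficient of variation (CV, the SD of the CPM over its mean, n = 3) was 70.9%, with a lower quartile of 47.2%. It was 53.0% for the 60 named rows and 63.0% for all 222 rows with at least 10 counts in each library. Counting alone would give a median of 5.94%, and 112 of the 116 members had a CV over 2 times that of counting. The ratio of the highest to the lowest library had a median of 4.40, was over 10 for 24 members and under 2 for 15. The median CV was 51.2% without replicate 1. With TMM factors it was 55.8% (named rows 32.8%), and with miR-148a left out of the totals 59.6% (named rows 37.7%).

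Among rows of at least 50 CPM, the highest CV was that of novel195 (164%), then novel426 (157%), novel393 (156%), novel172 (151%) and novel382 (142%). Of these only novel172, miR-215, has a textbook name. The lowest CV was that of novel278 (10.5%), with 257, 310 and 263 CPM. novel43 (miR-185, 238, 276 and 322 CPM) had 15.2%, novel214 (miR-29c) 16.5%, novel133 (miR-224) 18.2% and novel13 (miR-204) 21.5%. The CV of novel278 was 10.5% where counting alone gives 5.22%. These low values hold for CPM. Division by the TMM factors, 1.66, 0.589 and 1.02, raises replicate 2 against replicate 1, so a level that is even by CPM, as for novel278, is then uneven. With these factors novel133 had 94.3, 384 and 198 CPM and novel13 had 422, 793 and 683.
novel278: cCGGGTGCtgtgggcttc

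**Figure D4:**
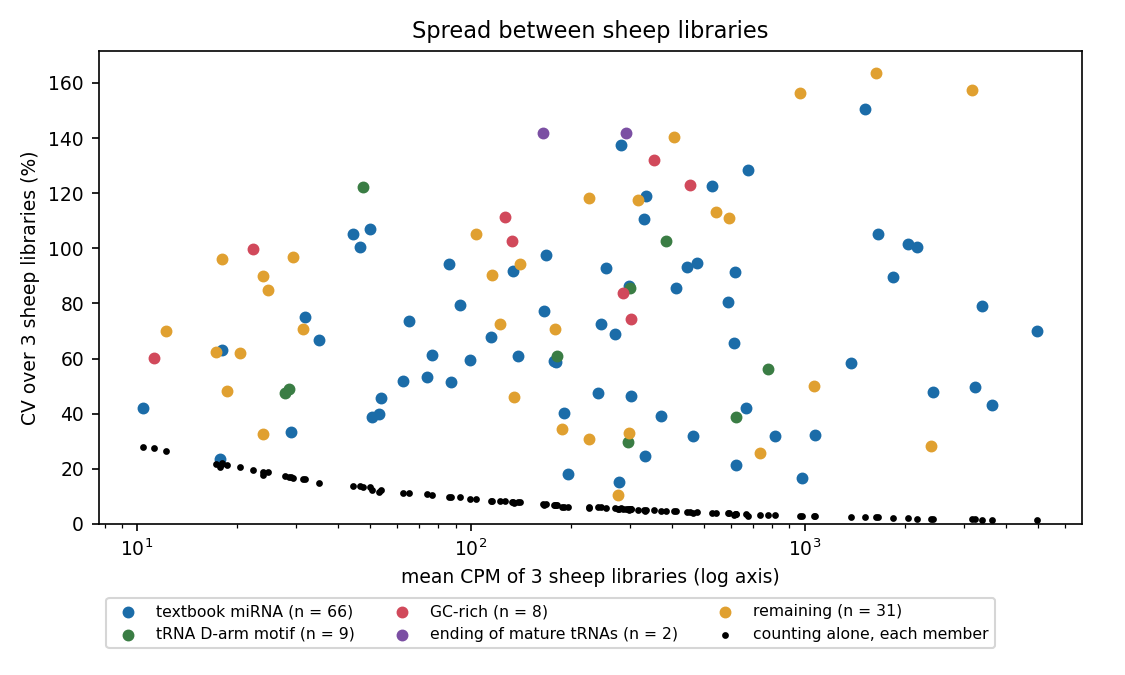
CV over the 3 sheep libraries (percent) against mean CPM (log axis) for the 116 members, coloured by group, with the CV that counting alone would give for each member as black points. Nearly all members lie far above the counting value at any level, and novel195, novel426 and novel393 are at the top.

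The order of the members also differed between libraries. Across the 116 rows, Spearman's rho of the CPM was 0.596 between replicates 1 and 2, 0.558 between 1 and 3 and 0.808 between 2 and 3. Across the 60 named rows it was 0.926, 0.911 and 0.926. These rows share libraries and depth, are not independent replicates, and the named rows cover a wider range of levels, so the values only describe.

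By CPM 68 members were highest in replicate 1, 9 in replicate 2 and 39 in replicate 3. The members' 58.6% in replicate 1 was close to the 59.9% of all 222 rows past the count minimum, so it is no feature of the members. With TMM factors the counts were 46, 31 and 39. Some of the largest values in replicate 1 belong to miRNAs known from other tissues. novel11 (miR-126, endothelium) had 4386, 499 and 1227 CPM, and novel135 (miR-155, activated lymphocytes) had 3688, 538 and 1283. novel131 (miR-206, skeletal muscle) had 727, 25.02 and 93.1, novel30 (miR-885-5p, liver) had 989, 273 and 161, and novel172 and novel151 moved alike. Outside the members, rows that carry miR-486 (red cells), miR-122 (liver) and miR-1 (muscle) had 77184, 70215 and 25686 CPM in replicate 1 against at most 741, 5703 and 650 in the others. The part that RNA of these tissues has in the members' values was not tested. In bulk EV RNA, fewer vesicles of a kind and less RNA in each cannot be told apart.

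Other members were lowest in replicate 1. novel126 (miR-31, known from keratinocytes and other epithelia) had 14.4, 312 and 1252 CPM. novel23 (miR-34c) followed the same order, as did novel179 (miR-196b) with 81.9, 160 and 751, novel234 with 9.90, 142 and 524, and novel256 (miR-149) with 158, 255 and 917. The muscle miRNA miR-499 (novel109) stood apart from miR-206, with 582, 6.25 and 651 CPM. The epithelial miRNA miR-141 (novel75), of the miR-200 family, differed less by CPM, with 1064, 836 and 548. With TMM factors it had 640, 1419 and 536, highest in replicate 2. miR-183 (novel28) and miR-182 (novel35), of 1 cluster, had 303, 491 and 596 CPM and 217, 250 and 104.

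**Figure D5:**
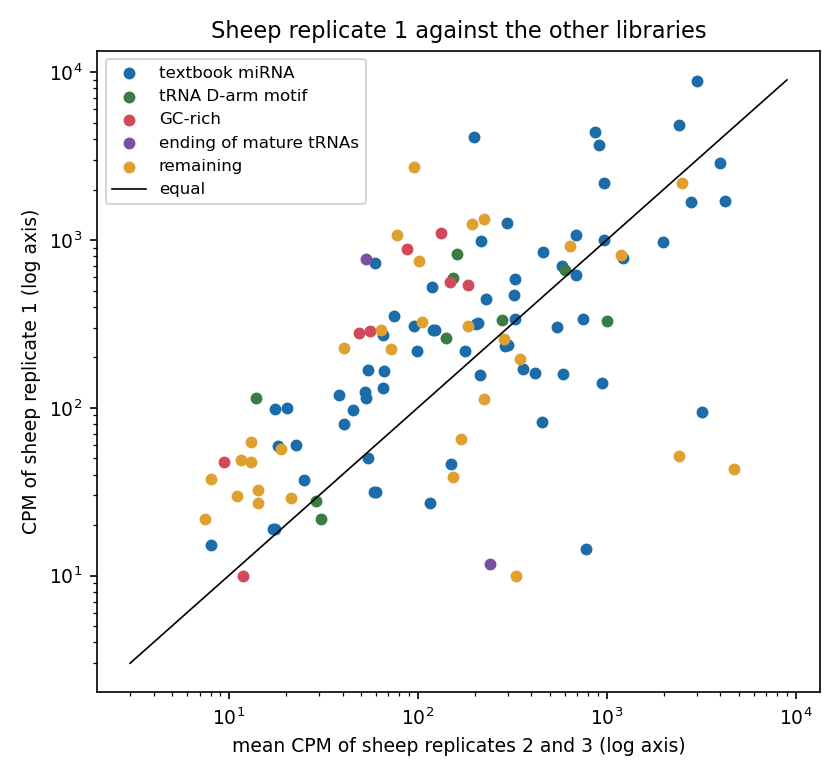
CPM of each member in sheep replicate 1 against its mean in replicates 2 and 3 (both log axes), coloured by group, with the line of equal values. The GC-rich rows lie above the line but for novel225, and novel126, novel23, novel234, novel195 and novel426 lie far below it.

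The fixed marker lists found members for liver (1 of 3 names), striated muscle (2 of 4), leukocytes (3 of 6), mammary epithelium (1 of 7), stroma and vessels (1 of 5) and neurons (3 of 3). Their members summed to 1269, 228 and 363 CPM for liver, 746, 31.3 and 122 for muscle, 4264, 706 and 1436 for leukocytes, and 4386, 499 and 1227 for stroma and vessels. Each of these sums was highest in replicate 1, also with TMM factors, deposited TPM and miR-148a left out of the totals. The leukocyte order is that of the sum of the member rows only, which is mostly novel135. All 3 rows were highest in replicate 1 by CPM, but only 2 with TMM factors. By CPM novel38 (miR-342-3p) had 306, 135 and 55.9, lowest in replicate 3 where the sum was lowest in replicate 2. Outside the members, miR-146a of that list (left-out row novel149) had 9490, 11870 and 20612.5 CPM, above the leukocyte sum and highest in replicate 3. The named row miR-150 of the list had 637, 30.8 and 36.3 CPM, highest in replicate 1. The liver sum is 1 row, and with TMM factors it was 763, 386 and 356, lowest in replicate 3. The named row miR-194 of the liver list had 236, 142 and 12.1 CPM, highest in replicate 1. With TMM factors, or with miR-148a left out of the totals, miR-194 was highest in replicate 2. The left-out miR-122 of that list, given above, was highest in replicate 1. The muscle sum is mostly novel131, while the other muscle row, novel147, was highest in replicate 3 by CPM. The mammary list, by the named rows miR-148a, miR-200b and miR-200c, had 201427, 637886 and 383650 CPM, nearly all of it miR-148a. miR-200b and miR-200c together had 5570, 1799 and 3791 CPM, and the member of the list, novel75, is given above.

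Of the 58 textbook names 9 have a cow row of exactly that name, and only the values of these 9 are set beside the sheep rows. The remaining 49 names had no cow row of that exact name, and other forms of the names were not searched. miR-24-3p had 187, 450 and 169 cow counts, or 569, 809 and 436 CPM, under the summed sheep values. miR-126-3p had 1543, 1179 and 1014 CPM, within the sheep range. miR-421 (novel161) had 183, 385 and 33.5 CPM in cow and 18.9, 21.2 and 13.0 in sheep. miR-425-5p (novel34) had 216, 252 and 33.5 CPM in cow and 166, 81.8 and 51.2 in sheep. The other 5 were under 10 counts in at least 1 cow library. Rows were chosen for their sheep counts, and the 2 species were sequenced in separate studies and cannot be told apart from them, so no test was made.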

How the data were processed

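Small RNA of milk EVs was sequenced in 3 sheep and 3 cow libraries, the 2 species in separate studies. The authors deposited whole-number counts per miRNA row, and the TPM values they deposited are those counts scaled by a constant of each library, without regard to length. Row length in bases is also deposited. The submitters' processing notes name cutadapt 1.14 and Bowtie. The sources used here give no build, miRBase release or tool for prediction and counting, so rows have no coordinates. Sheep rows were selected, counted and compared by sequence in Python 3.11.15 (pandas 2.3.3). A library's total is the sum of its row counts. TMM factors came from edgeR 4.0.16. Overlaps needed at least 16 bases without gaps and a start shift of at most 5 bases. The members and lists were chosen with earlier results of these data known, and textbook names were given by recall. Rows named are the 20 of highest mean CPM, the 5 of highest and of lowest CV from 50 CPM, those of the 6 shared seeds of highest summed CPM and the threshold neighbours, and others were chosen after their values were seen. Counts of the 3 sheep libraries form 1 group, so no test between groups and no p was made. The CV step was tested on simulated counts. The alternatives changed the count minimum, seed, denominator, scaling, overlap and libraries. Not all sequences of tRNA-like rows are reported here.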

Additional observations from a re-analysis of the deposited data

How the results depend on the processing

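The number of members was 116, and it became 77 with a minimum of 50 counts and 258 with a mean of at least 10 CPM in place of a minimum in each library. Leaving out 1 library gave 125 to 138. The mean share of counts was 6.21%, 16.6% of unnamed counts and 10.4% with the largest row left out of the totals, where the lowest library was replicate 1 and not 2, and 5.37% to 7.61% with 1 library left out. Without the textbook-named rows, an alternative added after the data were seen, it was 1.89%. The share beginning with T was 57.5% weighted by CPM and 44.2% to 45.6% with 1 library left out. The median CV was 55.8% with TMM factors, 59.6% with the largest row left out, and 51.2% to 73.5% with 1 library left out, lowest without replicate 1. Other settings moved the number of members and shifted copies by at most 1.5 times and left the median length at 22 bases. The library of the highest sum was also compared across scales, added after the data were seen, and the report names where it changed for a group whose order it gives. The match to reference miRNA sequences was not run, as none were used here. No paired analysis was possible because the results come from no test between groups. Depth limits the rows near 10 counts most.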
